A study of Homo sapiens with 12 samples.

Results

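The RNA-seq libraries of this HepG2 series carry the numbers 1, 2 and 3 in each of 4 groups, and the 4 libraries numbered 1 were compared with the 8 numbered 2 or 3, out of 12 in all. The groups were DKD cells with TNFα, DKD cells without TNFα, CTL cells with TNFα and CTL cells without TNFα, each with 3 libraries. HepG2 is an established human liver cancer cell line. DKD cells carry short hairpin RNAs against the transcripts of macroH2A1 and macroH2A2, and CTL cells carry control hairpins. In both lines the cassettes were stably integrated by retroviral transduction with pRetroSUPER vectors. All cells spent a night in 0.5% serum, and then received TNFα at 20 ng/mL, or the same volume of its carrier (PBS with 0.1% BSA), for 24 hours. The labels say neither whether a number marks a separate culture nor whether each line is 1 pool of transduced cells, so the spread between libraries may be technical. The serial numbers in the library descriptions run consecutively through the 4 libraries of each number, and the labels give them no meaning.

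The split was chosen from the measured values: in a principal component analysis of the expression values the number 1 libraries of DKD cells stood apart. They lay at -53.9 (TNFα) and -83.7 (untreated) on the first component, which held 33.0% of the variance, while the number 1 libraries of CTL cells lay at 6.38 (TNFα) and -18.2 (untreated). The 8 other libraries lay between -1.27 and 41.5. Differences between number 1 and the other numbers are therefore given as a description, with no p-value, and a call below is a threshold and not a test. This also holds for the shift in DKD cells set against that in CTL cells. A test is given for the dependence of the shift on TNFα, which is a different contrast from the one chosen. It rests on the same libraries, of which number 1 of untreated DKD cells lay furthest out. Its p-values are therefore not free of the choice. Values of single genes between numbers 3 and 2 are tested as well, but the split was chosen with these numbers seen to lie together, so the small extent of their difference is part of the choice and not a result.

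**Figure D1:**
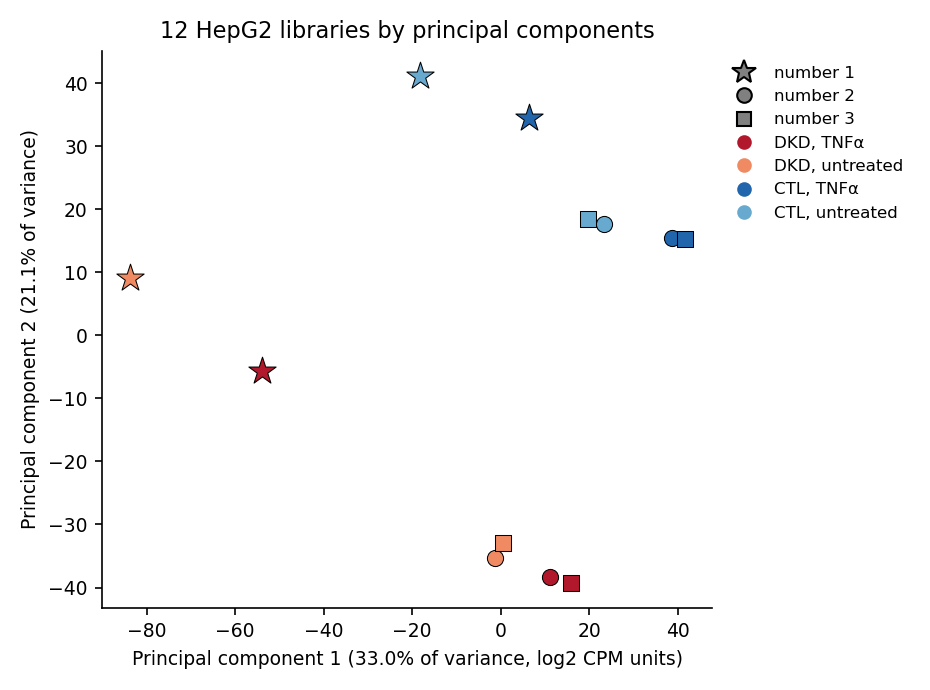
Principal components 1 and 2 of log2 CPM, 1 symbol per library, with stars for number 1, circles for number 2 and squares for number 3, coloured by group. Numbers 2 and 3 of a group lie side by side, and the number 1 library of each group lies to their left and above them.

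Hepatocytes make most plasma proteins, turn cholesterol into bile acids and clear drugs, and HepG2 cells keep part of this program while they divide. Genes of DNA replication are switched on by E2F factors at the start of S phase, and genes of mitosis are switched on later by complexes that bind CCAAT boxes and cell-cycle homology regions. TNFα acts through NF-kB, which induces chemokines and its own inhibitors. MacroH2A proteins are variants of histone H2A with a large extra domain, known from repressed chromatin and from differentiated cells.

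Several sequences are shown because the lists of replication, mitotic and chemokine genes differ in the sites before their gene starts. For the YAP/TEAD targets the share with a site was not counted, and their stretches are examples only. They are stretches of RefSeq promoters (build GRCh38.p14), printed 5′ to 3′ on the gene's strand, and capitals mark the site. The E2F letters searched on both strands were TTTGGCGC, TTTCCCGC, TTTGCCGC and TTTCGCGC. Hits on opposite strands can overlap, and each was counted, but overlapping ones print as 1 run of capitals. POLE, the catalytic subunit of DNA polymerase epsilon, has 1 hit at chr12:132687343-132687370 (minus strand). MCM6, a subunit of the replicative helicase, has 4 hits, which overlap in pairs, at chr2:135876512-135876605 (minus strand). GINS2, a helicase partner, has 1 hit at chr16:85688968-85688995 (minus strand).
POLE: gggtgggagcGCGCCAAAtttctcccct
MCM6: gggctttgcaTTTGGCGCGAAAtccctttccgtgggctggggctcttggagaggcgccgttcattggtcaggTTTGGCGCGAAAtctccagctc
GINS2: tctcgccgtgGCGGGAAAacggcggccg
The cell-cycle homology region was searched as TTTGAA or TTTAAA on both strands. CENPE, a motor protein of the kinetochore, has 2 hits at chr4:103198390-103198421 (minus strand), and HMMR, a spindle protein, has 2 at chr5:163460594-163460625 (plus strand).
CENPE: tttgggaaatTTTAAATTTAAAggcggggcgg
HMMR: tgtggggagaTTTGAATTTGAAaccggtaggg
A pair of YAP/TEAD target genes that went opposite ways in number 1 libraries both hold the TEAD letters CATTCC, searched on both strands. ANKRD1, an ankyrin-repeat protein, has 2 hits at chr10:90921200-90921317 (minus strand). CCN2, a secreted matrix protein, has 3 at chr6:131951452-131951551 (minus strand).
ANKRD1: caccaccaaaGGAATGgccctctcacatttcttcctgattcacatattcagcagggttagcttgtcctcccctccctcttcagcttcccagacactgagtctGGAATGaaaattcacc
CCN2: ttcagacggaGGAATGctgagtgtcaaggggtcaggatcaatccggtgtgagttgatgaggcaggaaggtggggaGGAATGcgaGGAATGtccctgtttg
CXCL8, a chemokine that draws neutrophils, holds the AP-1 letters TGACTCA (searched also as TGAGTCA) at chr4:73740422-73740448 (plus strand).
CXCL8: ggaagtgtgaTGACTCAggtttgccct

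Library totals ran from 37780825 to 41811214 counts in number 1 libraries and from 30955080 to 42094144 in the other 8, and 1 count equals 0.0238 to 0.032 CPM, a count scaled by library size after TMM adjustment. The share of mitochondrially encoded counts was 8.04% to 10.3% in number 1 libraries and 7.59% to 8.94% in the others. The 10 most abundant genes held on average 10.2% of the counts in number 1 libraries and 9.32% in the others, and on average 20453 genes had a count in number 1 libraries and 20404 in the others. Within groups, chi-square per degree of freedom of the counts was 31 to 142 for pairs with a number 1 library, and 12.2 to 18.9 for numbers 2 and 3. All 16 hepatocyte and HepG2 marker genes were measured, and ALB and AHSG are given below. Of 20 blood and immune markers, 4 had no count (CD3E, MS4A1, FCGR3A and PPBP) and 7 reached 1 CPM, with a summed level of 360 to 1031 CPM in number 1 libraries and 420 to 1283 CPM in the others. LYZ, a lysozyme, made up most of that sum, which without it was 12.3 to 16.5 CPM in number 1 libraries and 16.1 to 23.1 CPM in the others. Of 19 endothelial and stromal markers, 2 had no count (CLDN5 and THY1) and 3 reached 1 CPM, with sums of 32.6 to 52.7 CPM in number 1 libraries and 29.5 to 41.7 CPM in the others. Of 23 markers of other epithelia and cell lines, 3 had no count (KRT14, NKX2-1 and KLK3) and 6 reached 1 CPM. Their sums were 467 to 655 CPM in number 1 libraries and 463 to 619 CPM in the others. Most of each sum came from EPCAM (124 to 169 CPM over all libraries), VIL1 (234 to 396 CPM) and LIN28B (72.3 to 109 CPM). The part of these measures in the results below was not tested. In bulk RNA, fewer cells of a kind and less RNA per cell cannot be told apart.

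The number 1 libraries differed from the others across much of the transcriptome. A gene was called where edgeR's quasi-likelihood test, with the group as a block, gave an adjusted p under 0.05 over 16118 genes. Over all 4 groups 3460 genes were called higher (21.5%) and 3661 lower (22.7%) in number 1 libraries, so 44.2% were called in either direction. In DKD cells 3746 were called higher (23.2%) and 4138 lower (25.7%), or 48.9% in either direction. In CTL cells the counts were 1217 higher (7.55%) and 1221 lower (7.58%), or 15.1% in either direction. The counts of the lists below stand beside these shares over all genes. The CTL count rests on few libraries: it fell to 230 without the number 1 library of untreated CTL cells, to 704 without that of TNFα-treated CTL cells, and to 1454 or 1587 without number 2 or number 3 of untreated CTL cells. The DKD count was 4421 without the number 1 library of untreated DKD cells, against 7884 with it. For 2936 genes (18.2%) the number 1 library lay above both others in all 4 groups, and for 2997 (18.6%) it lay below both.

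Both lines moved mostly the same way, and DKD cells moved further. Of the genes called higher in CTL cells, 1071 were also called higher in DKD cells, which is 88% of the CTL genes and 28.6% of the DKD genes. Of those called lower in CTL cells, 1104 were also called lower in DKD cells, which is 90.4% of the CTL genes and 26.7% of the DKD genes. Only 6 genes were called higher in CTL and lower in DKD cells, and 2 the other way round. Over all genes tested, called or not, 12161 (75.4%) had the same sign in both lines. The median size of the shift over all genes was 0.34 on the log2 scale in DKD cells and 0.18 in CTL cells. Across the 2175 genes called the same way in both lines, the shift was the larger one in DKD cells for 1854 (85.2%). Over all 16118 genes it was the larger one in DKD cells for 12125 (75.2%). Over genes, the shifts of the lines correlated with r = 0.59 (rho = 0.652, 16118 genes), and with r = 0.826 (rho = 0.78) over the 11277 genes with an average log2 CPM of at least 2. These 2 shifts come from separate libraries, but genes are not independent replicates.

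**Figure D2:**
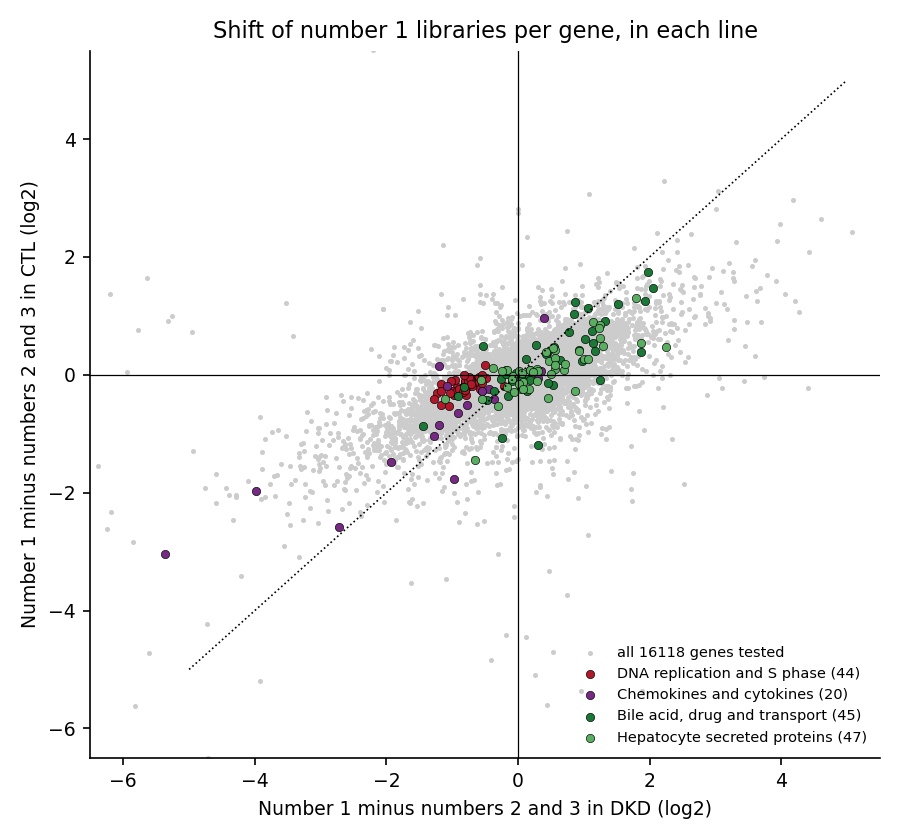
Shift of number 1 minus numbers 2 and 3 per gene on the log2 scale, in DKD cells (x axis) and CTL cells (y axis), with 4 gene lists coloured and a dotted line of equal shifts; 39 genes fall outside the axes. Replication genes (median -0.80 in DKD and -0.19 in CTL cells) sit left of the line of equal shifts, and of the 4 coloured lists the chemokine genes reach the lowest values in both lines.

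Genes of hepatocyte function were more often higher than lower in number 1 libraries. Of 45 genes of bile acid, drug and transport functions, 18 were called higher and 6 lower over all groups (median log2 shift 0.20, against 0.01 over all genes). CYP7A1, the rate-limiting enzyme of bile acid synthesis, stood at 71.5 and 137 CPM in the number 1 libraries of TNFα-treated and untreated DKD cells and at 27.1 and 71.7 CPM in those of CTL cells, against a lowest, median and highest value of 8.65, 17.9 and 42.2 CPM in the other 8. Each number 1 library lay above both others of its group, although the groups' ranges overlap when pooled, and the shift was 1.78 on the log2 scale (SE 0.15). BAAT, which joins bile acids to glycine or taurine, stood at 31.7, 30.3, 51.5 and 29.7 CPM in the number 1 libraries (DKD with TNFα, DKD untreated, CTL with TNFα, CTL untreated), against 6.49, 9.03 and 15.8 CPM as the lowest, median and highest of the others. Here the 4 number 1 libraries lay above all 8 others. The share of all genes whose numbers lay apart in this way is not given, here or for the genes below. How unusual such a gap is can therefore not be told. Within groups, number 1 lay above both others in all 4 groups for 18.2% of all genes and below both for 18.6%. The BAAT shift was 1.98 (SE 0.1) in DKD and 1.74 (SE 0.09) in CTL cells, so it was nearly as large in the control line.

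More detoxifying enzymes and carriers were higher. SULT2A1, which adds sulfate to bile acids and steroids, stood at 624, 558, 320 and 350 CPM in the number 1 libraries in the same order of groups, against 115, 147 and 180 CPM as the lowest, median and highest of the others. UGT2B10, a drug-glucuronidating enzyme outside the list, stood at 40.4, 87.8, 7.39 and 22.5 CPM in number 1 libraries, against 2.33, 8.51 and 17.9 CPM in the others. Number 1 was above both others in each group for both genes. The log2 shifts over all groups were 1.6 (SE 0.13) for SULT2A1, 1.92 (SE 0.1) for UGT2B10, 1.14 (SE 0.11) for the sterol hydroxylase CYP8B1, 0.81 (SE 0.12) for the organic anion carrier SLCO2B1 and 0.68 (SE 0.09) for the monooxygenase FMO5. The medium-chain acyl-CoA synthetases ACSM2A (2.2, SE 0.13) and ACSM2B (2.11, SE 0.15) were also higher, but these near-identical copies share reads and cannot be taken apart with confidence.

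Secreted liver proteins followed the same pattern. Of 47 such genes 21 were called higher and 4 lower over all groups (median 0.18). ALB, which encodes albumin, stood at 3042 and 8437 CPM in the number 1 libraries of TNFα-treated and untreated DKD cells, where the others had 2438 and 2163 CPM with TNFα and 5605 and 4685 CPM without. In CTL cells the number 1 libraries had 309 CPM with TNFα and 550 CPM without, and the others 213 to 477 CPM. Number 1 was the highest of its group each time, with a shift of 0.49 (SE 0.08) that was small beside the gap between the lines. AHSG, a secreted fetuin, was more even, with 1069, 1029, 984 and 872 CPM in number 1 libraries and 644 to 821 CPM in the others. APOA5, which regulates plasma triglycerides, shifted by 1.57 (SE 0.1), APOH, a phospholipid-binding plasma protein, by 1.03 (SE 0.07), and CPB2, an inhibitor of fibrinolysis, by 1.02 (SE 0.08). The clotting inhibitor SERPIND1 shifted by 0.95 (SE 0.11) and the plasmin inhibitor SERPINF2 by 0.65 (SE 0.12). APOB, the core protein of lipoproteins secreted by liver, was called higher in DKD (0.7, SE 0.08) but not in CTL cells (0.09, SE 0.09).

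Acute-phase and complement genes shifted differently in the 2 lines, with list medians of opposite sign. Of 35 genes 19 were called higher and 8 lower in DKD cells (median 0.53), and 7 higher and 5 lower in CTL cells (median -0.21). The membrane-attack subunits C8A and C8B shifted by 1.21 (SE 0.12) and 1.37 (SE 0.14) over all groups, and the complement inhibitor C4BPA by 0.76 (SE 0.09). SAA4, a serum amyloid A apolipoprotein, went the other way: it stood at 14.3, 13.6, 4.83 and 5.35 CPM in number 1 libraries, while the other libraries of DKD cells had 30.1 to 41.8 CPM and those of CTL cells 6.55 to 9.36 CPM.

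Of 31 liver transcription factors 15 were called higher and 5 lower over all groups (median 0.19). PPARA, the fatty-acid-sensing nuclear receptor, stood at 97.4, 114, 61.7 and 60.7 CPM in number 1 libraries against 40.5, 45.3 and 48.6 CPM as the lowest, median and highest of the others, with no overlap. NR1D2, a nuclear receptor of the circadian clock, stood at 74.1, 94.5, 57.8 and 49.7 CPM against 28.7, 33.4 and 36.4 CPM, again without overlap. ATF5, a factor of the stress response, was lower, at 15.1, 10.6, 23 and 16.7 CPM in number 1 libraries against 29.5, 34 and 37.9 CPM in the others. Of the keratins that mark this epithelium, KRT8 (-0.73, SE 0.09) and KRT18 (-0.74, SE 0.1) were both lower, so the identity genes did not all move one way: of 16, 6 were called higher and 2 lower (median 0.10).

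Of 30 genes of fasting and fatty acid oxidation 12 were called higher and 4 lower (median 0.13). CREB3L3, a liver transcription factor of the fasting response, shifted by 1.1 (SE 0.13) in DKD cells and was not called in CTL cells (0.34, SE 0.13). CPT1A, which admits fatty acids to mitochondria, was lower (-0.49, SE 0.07). Of 28 genes of fat synthesis and storage 10 were called higher and 7 lower. GPAM, the first enzyme of triglyceride synthesis, shifted by 0.84 (SE 0.09), while ACSS2, which makes acetyl-CoA from acetate, shifted by -1.15 (SE 0.18) and AGPAT2, a later enzyme of the GPAM pathway, by -1.12 (SE 0.15). PLIN4, a lipid-droplet coat protein, stood at 23.3 and 20.2 CPM in the number 1 libraries of TNFα-treated and untreated DKD cells, against 7.76 and 7.56 CPM with TNFα and 4.54 and 4.48 CPM without in the others. In CTL cells its number 1 libraries had 5.56 and 5.45 CPM and the others 3.05 to 4.38 CPM. Of 33 cholesterol genes 12 were called higher and 4 lower, among them FDPS (0.47, SE 0.06) and HSD17B7 (0.54, SE 0.08), both enzymes of sterol synthesis. ABCA1, which exports cholesterol, shifted by 0.65 (SE 0.11).

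DNA replication genes were lower in the number 1 libraries of DKD cells, where nearly the whole list was called. Of 44 genes 43 were called lower in DKD cells and 1 in CTL cells, and none was called higher (median -0.80 in DKD and -0.19 in CTL cells). Of all genes 25.7% were called lower in DKD and 7.58% in CTL cells, so the CTL count of the list was not above that share. Over all groups 39 were called lower. For 16 of the 44 the number 1 library lay below both others in each group. CDC6, which loads the helicase onto origins, stood at 87.2 and 79.4 CPM in the number 1 libraries of TNFα-treated and untreated DKD cells, against 171 and 162 CPM with TNFα and 210 and 212 CPM without in the others. In CTL cells CDC6 had 132 and 150 CPM in the number 1 libraries, against 125 and 142 CPM with TNFα and 180 and 192 CPM without in the others. The number 1 values were clearly apart in DKD cells and within the others' range in TNFα-treated CTL cells.

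MCM6, whose promoter sites are printed above, stood at 37.7 and 31.1 CPM in the number 1 libraries of DKD cells (TNFα and untreated), against 56.2 to 79.8 CPM in the others. GINS2 stood at 22.3 and 20.4 CPM there, against 40.7 to 57.2 CPM. Both were chosen for their sequence after their values were seen. The shift in DKD cells was -0.96 (SE 0.15) for MCM6, -1.17 (SE 0.14) for GINS2, -0.79 (SE 0.11) for POLE and -1.22 (SE 0.12) for the replication initiator MCM10. In CTL cells none of these 4 was called, with values of -0.1 (SE 0.14), -0.27 (SE 0.13), -0.34 (SE 0.11) and -0.31 (SE 0.11). CCNE1, cyclin E1, which drives entry into S phase, was called lower in both lines (-1.16, SE 0.11 in DKD and -0.51, SE 0.1 in CTL cells). CCNE2, its paralog, was called in DKD cells (-1.04, SE 0.19) but not in CTL cells (-0.53, SE 0.18).

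Mitotic genes went lower with the replication genes in DKD cells, to a lesser extent, but not in CTL cells. Of 50 genes 6 were called higher and none lower in CTL cells (median 0.23), while in DKD cells 2 were called higher and 23 lower (median -0.30). CENPE stood at 86.8, 88.1, 121 and 143 CPM in number 1 libraries, against 59.8, 70 and 101 CPM as the lowest, median and highest of the others, and number 1 was above both others in each group. CKS2, a subunit of cyclin-dependent kinases, was likewise higher in both lines (0.23, SE 0.08 in DKD and 0.55, SE 0.08 in CTL cells). AURKB, the kinase of the chromosomal passenger complex, stood at 36.9 and 32 CPM in the number 1 libraries of DKD cells against 55.7 to 76.6 CPM in the others, and its CTL shift was not called (-0.15, SE 0.13). CDCA3, a mitotic entry factor, was -0.69 (SE 0.09) in DKD and -0.13 (SE 0.09) in CTL cells. HMMR and the phosphatase CDKN3 were called higher in CTL cells (0.39, SE 0.09 and 0.42, SE 0.08) and not called in DKD cells (-0.1, SE 0.09 and -0.06, SE 0.08).

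In the promoters before the gene start, the E2F letters were found in 15 of 37 replication genes (40.5%) and in 4.88% of the mitotic ones, beside 4.31% of 11244 promoters of all genes tested. The cell-cycle homology letters were found in 29 of 41 mitotic genes (70.7%) and in 10.8% of the replication genes, beside 15% of all. Among all genes called lower in DKD cells, 5.0% of promoters held the E2F letters, and among those called higher 3.98% did. In CTL cells the order was the other way, with 2.8% of the lower and 3.86% of the higher ones. CCAAT, on either strand, was found before 32% of genes called lower and 38.5% of genes called higher in DKD cells and before 25.3% and 41.7% of them in CTL cells, beside 35.2% of all. GGGCGG was found before 69.2% of the lower and 61.9% of the higher ones in DKD cells and before 70.9% and 63.2% in CTL cells, beside 64.8% of all. The AP-1 letters were found before 4 of 13 chemokine and cytokine genes (30.8%), beside 2.68% of all. Among called genes they were found before 2.44% of the lower and 2.81% of the higher ones in DKD cells. In CTL cells these shares were 3.34% and 2.82%. The E2F, AP-1 and TEAD letters were added after values had been seen. A match is a description and shows no binding.

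**Figure D3:**
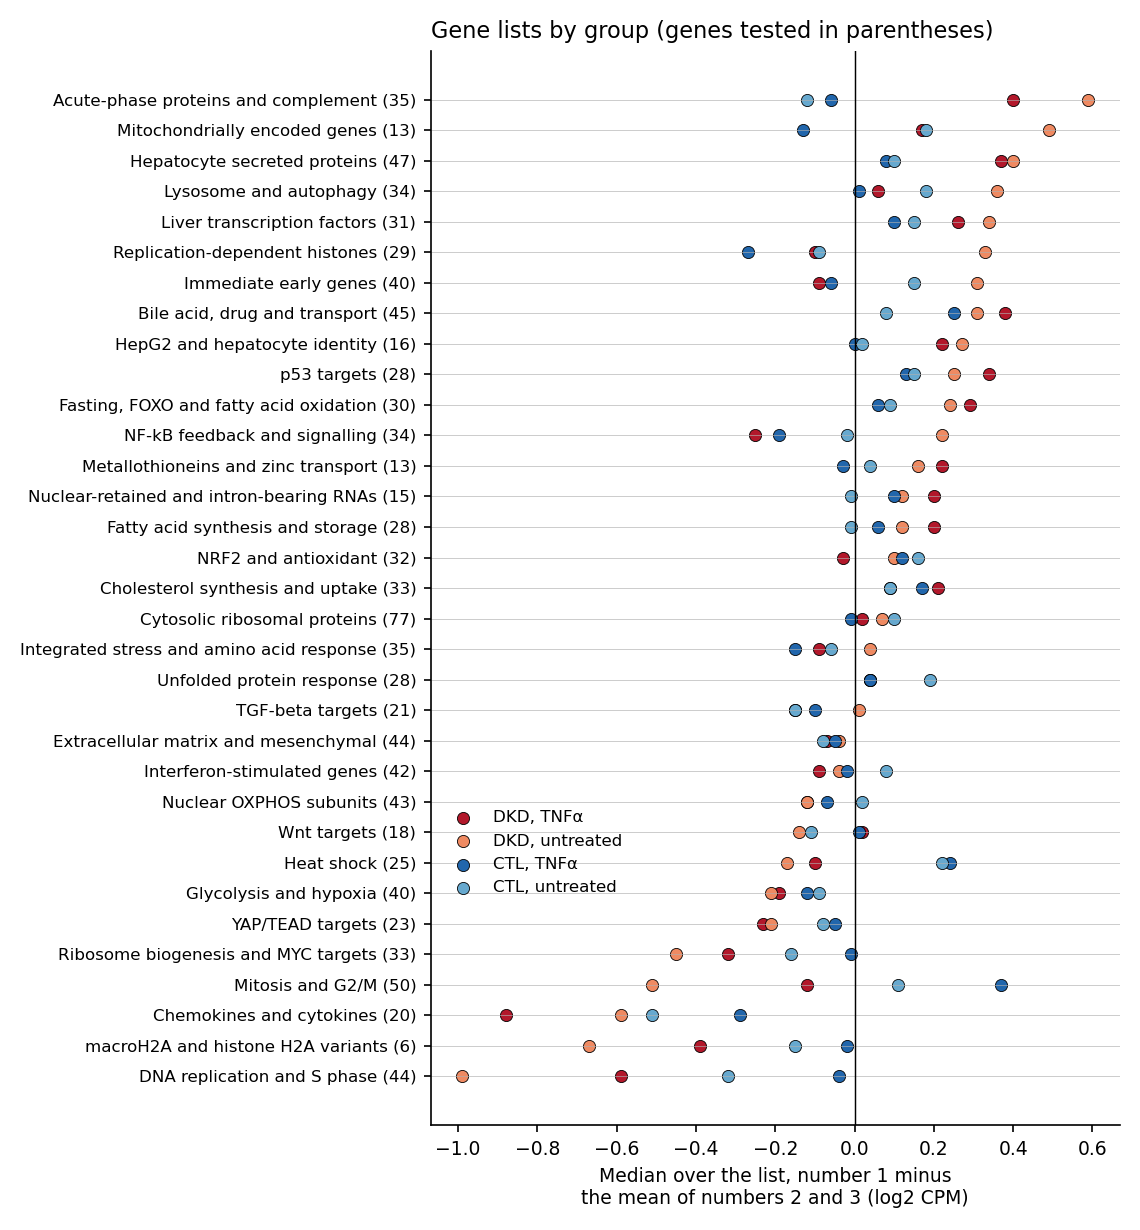
Median over each gene list of number 1 minus the mean of numbers 2 and 3 in log2 CPM, 1 point for each group, with lists ordered by untreated DKD cells; these are taken group by group and so differ from the medians of fitted shifts in the text. Replication genes lie below 0 in all 4 groups, but only at -0.04 in TNFα-treated CTL cells. Mitotic and heat-shock genes lie below 0 in DKD cells and above 0 in CTL cells.

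Genes of growth went with the replication genes. Of 33 genes of ribosome biogenesis and MYC targets 28 were called lower in DKD cells and 4 in CTL cells, and none higher (medians -0.36 and -0.08). SRM, which makes spermidine, stood at 39 and 34.4 CPM in the number 1 libraries of DKD cells against 65.2 to 85.1 CPM in the others. NME1, a nucleoside diphosphate kinase, was -1.04 (SE 0.09) in DKD and -0.31 (SE 0.09) in CTL cells, and ODC1, the first enzyme of polyamine synthesis, -0.83 (SE 0.06) and -0.2 (SE 0.06). TFRC, the transferrin receptor, was lower by a like amount in each line (-0.35, SE 0.09 in DKD and -0.4, SE 0.09 in CTL cells). Genes of cytosolic ribosomal proteins hardly moved, with 8 of 77 called higher and 4 lower (median 0.05).

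Glycolytic and hypoxia genes were more often lower, with 15 of 40 called lower and 6 higher (median -0.18). SLC2A1, the main glucose carrier of growing cells, stood at 152, 81.5, 361 and 127 CPM in number 1 libraries, against 254, 595 and 960 CPM as the lowest, median and highest of the others. Number 1 was below both others in each group, and the shift was -1.73 (SE 0.14). PFKFB3, an activator of glycolysis, shifted by -1.78 (SE 0.25), the enolase ENO1 by -0.35 (SE 0.06) and PKM, the pyruvate kinase of proliferating cells, by -0.55 (SE 0.08). PKLR, the liver form of pyruvate kinase, went the other way: it stood at 52.7, 56.9, 47.4 and 64.3 CPM in number 1 libraries, and at 30.3 to 43.3 CPM in the others, with no overlap.

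Among chemokines and cytokines 12 of 20 were called lower and 2 higher over all groups (median -0.49), with 10 of 20 lower in CTL cells. CXCL8 stood at 0.624 and 4.02 CPM in the number 1 libraries of TNFα-treated DKD and CTL cells, against 31.1 and 28.6 CPM in the other TNFα-treated DKD libraries and 42.6 and 20.4 CPM in the other TNFα-treated CTL libraries. Without TNFα it had 3 counts in DKD and 1 count in CTL cells in number 1 libraries, where the others had 21 to 30 counts. It was the lowest of its group in all 4 groups, at 194 counts summed over number 1 libraries and 5159 over the others. IL18, an inflammatory cytokine, had 37 counts in all number 1 libraries and 498 in the others. IL32, another cytokine, stood at 235, 77.9, 302 and 62.9 CPM in number 1 libraries, and shifted by -0.91 (SE 0.07) in DKD and -0.65 (SE 0.07) in CTL cells. CXCL16, a membrane-bound chemokine, shifted by -0.41 (SE 0.07).

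TNFSF14, a TNF-family ligand of lymphocytes also known as LIGHT, was higher where the chemokines were lower. It stood at 32.5 and 17.4 CPM in the number 1 libraries of TNFα-treated and untreated DKD cells, against 3.65 and 3.23 CPM with TNFα and 1.17 and 1.36 CPM without in the others. In CTL cells number 1 had 21.8 CPM with TNFα and 2.75 CPM without, and the others 9.02 to 11.2 CPM with TNFα and 1.54 to 2.31 CPM without. Of 34 NF-kB feedback genes 3 were called higher and 11 lower, among them the inhibitor NFKBIA (-0.37, SE 0.06) and the kinase IKBKE (-1.36, SE 0.23). Of 42 interferon-stimulated genes 12 were called higher and 10 lower, which is near the shares over all genes (21.5% and 22.7%). The GTPase GBP1 shifted by 1.58 (SE 0.16) and IFIT5, an RNA-binding antiviral protein, by 0.65 (SE 0.06), while the antiviral membrane protein IFITM2 shifted by -0.92 (SE 0.12).

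Some genes of membranes and the cytoskeleton were named for the size of their fall, with no list fixed for them. EMP3, a membrane protein of epithelia, stood at 0.474, 0.0273, 3.05 and 0.486 CPM in number 1 libraries (the second of these is 1 count), against 1.8, 4.76 and 11 CPM as the lowest, median and highest of the others. CLDN6, a tight-junction protein of embryonic epithelia, stood at 0.674, 0.328, 3.37 and 1.92 CPM against 5.92, 10 and 16.8 CPM. CLDN6 was apart without overlap, and EMP3 was the lowest of each group. The rule that named genes by size admitted only those with number 1 beyond both others in every group covered. The lowest place of CLDN6 and EMP3 in their groups is therefore part of the choice and not a result. The shifts in DKD cells were -4.39 (SE 0.25) for CLDN6 and -4.45 (SE 0.32) for EMP3, and those in CTL cells -2.04 (SE 0.19) and -1.92 (SE 0.24). L1CAM, an adhesion molecule (-2.46, SE 0.37 over all groups), S100A11, a calcium-binding protein (-2.26, SE 0.28), SLC4A11, an ion carrier (-2.2, SE 0.3), and TUBA1A, an alpha-tubulin (-2.17, SE 0.26), were lower too.

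NES, the intermediate filament nestin, stood at 11 and 4.02 CPM in the number 1 libraries of TNFα-treated and untreated DKD cells, against 42.5 to 74.3 CPM in the others, and at 73.7 and 30.7 CPM in those of CTL cells, against 66.2 to 116 CPM. GPRC5B, an orphan receptor, stood at 0.874 and 0.082 CPM in the number 1 libraries of DKD cells, against 12.1 and 15.6 CPM with TNFα and 0.928 and 0.811 CPM without in the others, but untreated CTL cells had only 0.0961 to 0.168 CPM in any library. ESAM, an adhesion molecule of tight junctions, was lower by a like amount in each line (-2.29, SE 0.28 in DKD and -1.77, SE 0.26 in CTL cells). So was ZNF619, a zinc-finger protein, at -2.14 (SE 0.24) and -1.98 (SE 0.23). CSTF2T, a factor of mRNA 3′ end processing, was lower by more in CTL cells (-1.79, SE 0.17) than in DKD cells (-0.67, SE 0.14). Its number 1 libraries had 9.24, 6.15, 1.9 and 1.36 CPM, against 11.8 to 12.4 CPM in the other DKD and 5.1 to 6.02 CPM in the other CTL libraries.

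Of 23 YAP/TEAD targets 8 were called higher and 10 lower, and the pair whose promoters are printed above stand for the split. ANKRD1 stood at 5.64, 2.32, 13.7 and 2.89 CPM in number 1 libraries, while the other libraries had 57.5 and 61.6 CPM (DKD with TNFα), 18.9 and 22.3 CPM (DKD untreated), 32.2 and 22.9 CPM (CTL with TNFα) and 8.72 and 6.84 CPM (CTL untreated). CCN2 stood at 90.2, 187, 76.4 and 107 CPM in number 1 libraries, against 30.8, 47.8 and 104 CPM as the lowest, median and highest of the others. ANKRD1 was below and CCN2 above both others in every group, with shifts of -2.12 (SE 0.36) and 1.04 (SE 0.11). The TEAD letters were found before 9.56% of all genes tested. The membrane-repair protein MYOF (-1.71, SE 0.17) and the receptor kinase AXL (-1.77, SE 0.21), both of this list, were lower.

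Of 44 matrix and mesenchymal genes 10 were called higher and 15 lower. The protease inhibitors TIMP1 (-1.19, SE 0.2) and TIMP2 (-1.5, SE 0.23), the collagen cross-linker LOXL4 (-1.84, SE 0.35) and the actin-binding TAGLN (-0.97, SE 0.09) were lower. TGFBI (-0.77, SE 0.06), a matrix protein induced by TGF-β, and TGFB1 itself (-0.86, SE 0.14) were lower as well, and of 21 TGF-β targets 3 were called higher and 7 lower. Of 18 Wnt targets 3 were called higher and 6 lower: the feedback inhibitor AXIN2 shifted by -0.34 (SE 0.05), the receptor LGR5 by -0.68 (SE 0.12) and the glutamine synthetase GLUL by 0.41 (SE 0.07).

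Of 13 genes of metallothioneins, which bind zinc and copper, and of zinc transport, 4 were called higher and 4 lower (median 0.14, and 0.28 in DKD cells). MT1X had 4, 2, 2 and 4 counts there and 19 to 120 counts in each of the others. MT1E stood at 0.799, 1.56, 0.585 and 1.14 CPM in number 1 libraries, against 2.76, 9.44 and 16.9 CPM as the lowest, median and highest of the others. Of the other metallothioneins tested, named after their values were seen, MT1F was called lower (-1.66, SE 0.52), while MT1G (-1.36, SE 0.65) and MT2A (-0.34, SE 0.39) were not called. The metallothioneins resemble each other closely, so reads may be shared among copies. The number 2 libraries also lay below the number 3 libraries for MT1E in every group, with a difference of 1.28 on the log2 scale (SE 0.25) for number 3 minus number 2 that was not called (edgeR adjusted p = 0.0783). The zinc importers SLC39A10 (1.5, SE 0.13) and SLC39A14 (0.7, SE 0.08) were higher in number 1 libraries.

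Of 40 immediate early genes, which answer growth signals within minutes, 9 were called higher and 11 lower, near the shares over all genes (21.5% and 22.7%). FOSB, an AP-1 subunit, stood at 22.3, 20.5, 26.3 and 13.9 CPM in number 1 libraries against 0.572, 4 and 9.22 CPM as the lowest, median and highest of the others, with no overlap. EGR1, a zinc-finger factor, stood at 192, 266, 179 and 218 CPM against 9.3, 65.4 and 96.2 CPM. EGR1 also differed between the other numbers, at 68.3, 73.1, 89.7 and 96.2 CPM in number 2 and 27.3, 9.3, 62.5 and 27.9 CPM in number 3 libraries. Number 3 was lower than number 2 in every group, by 1.48 on the log2 scale (SE 0.39), which was not called (edgeR adjusted p = 0.163). The kinase SIK1 (0.71, SE 0.11), the clock gene PER1 (0.94, SE 0.24) and the serum response factor SRF (0.42, SE 0.08) were higher, and the AP-1 subunit FOSL1 (-0.6, SE 0.09) and the phosphatase DUSP5 (-1.79, SE 0.3) lower.

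Of 28 p53 targets 14 were called higher and 2 lower (median 0.25), with the RNA-binding protein ZMAT3 at 0.85 (SE 0.16), the apoptosis effector BAX at 0.38 (SE 0.06) and the oxidoreductase TP53I3 at -1.11 (SE 0.11). Of 25 heat-shock genes 10 were called higher and 2 lower in CTL cells, and 5 higher and 12 lower in DKD cells. The chaperone HSPH1 stood at 217 and 212 CPM in the number 1 libraries of DKD cells against 233 to 257 CPM in the others, and at 311 and 327 CPM in those of CTL cells against 233 to 247 CPM. HSP90AA1, another chaperone, was higher in CTL cells (0.39, SE 0.07) and not called in DKD cells (0.01, SE 0.07), and the small heat-shock protein HSPB8 was lower in both (-3.66, SE 0.31 in DKD and -1.7, SE 0.26 in CTL cells). SERPINH1, a chaperone of collagen, stood at 21.6, 13.5, 43.6 and 25 CPM in number 1 libraries against 48.1, 61.2 and 92.3 CPM as the lowest, median and highest of the others, with no overlap. Of 35 genes of the integrated stress response 6 were called higher and 14 lower, with the tryptophan tRNA ligase WARS1 at -0.72 (SE 0.07) and the amino acid carrier SLC38A2 at 0.73 (SE 0.12). Of 13 mitochondrially encoded genes 9 were called higher in DKD cells and none in CTL cells, among them MT-CYB (0.62, SE 0.1 in DKD) and MT-ND3 (0.49, SE 0.09 in DKD), both respiratory chain subunits. Of 43 nuclear genes of the respiratory chain 2 were called higher and 16 lower in DKD cells, such as NDUFV2 (-0.59, SE 0.06).

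Other genes named for the size of their shift have no list in common. KCND1, a voltage-gated potassium channel, stood at 12.6, 21.8, 4.07 and 5.35 CPM in number 1 libraries and at 1.14 to 1.85 CPM in the others, with shifts of 3.62 (SE 0.2) in DKD and 1.42 (SE 0.21) in CTL cells. YPEL2, a zinc-binding protein of the yippee family, stood at 40.8, 63.3, 21.1 and 34.6 CPM against 9.58 to 11.3 CPM. ZNF341, a transcription factor that controls STAT3, stood at 22.4, 21, 19.3 and 19.9 CPM against 4.88 to 7.32 CPM. None of the 3 overlapped between the numbers, and the share of all genes so apart is not given. The rule that named genes by size already required number 1 beyond both others in every group covered, so this order is part of the choice. AOC2, an amine oxidase (2.24, SE 0.15 in DKD and 0.71, SE 0.16 in CTL cells), and QRICH2, a protein known from sperm tails (2.14, SE 0.12 and 0.61, SE 0.13), were higher as well. CCND2, cyclin D2, was called higher in DKD cells from 2 counts and 1 count in the number 1 libraries of TNFα-treated and untreated cells against 0 in the 4 others, so no fold is given. In CTL cells it had 1017 to 1512 counts in every library.

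**Figure D4:**
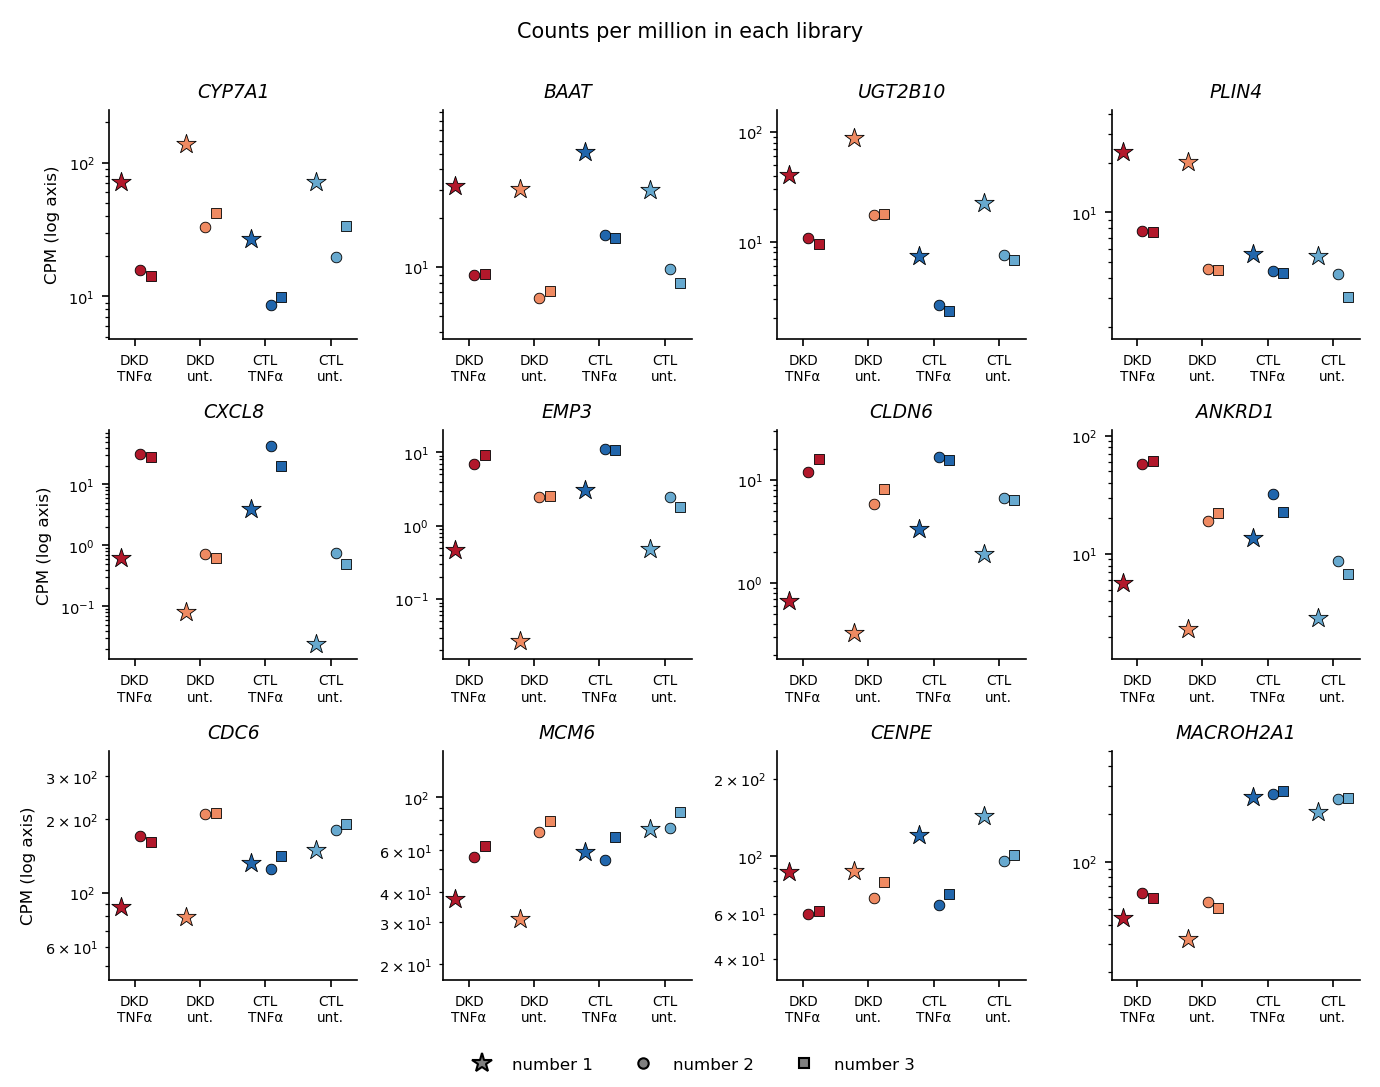
CPM of 12 genes in each library on log axes, with stars for number 1, circles for number 2 and squares for number 3. The stars lie above the other symbols in each group for CYP7A1, BAAT, UGT2B10, PLIN4 and CENPE and below them in each group for CXCL8, EMP3, CLDN6, ANKRD1 and MACROH2A1, whereas CDC6 and MCM6 are clearly apart in DKD cells and not in TNFα-treated CTL cells.

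The targets of the hairpins were checked within each number. MACROH2A1 stood at 44.2 and 32.4 CPM in the number 1 libraries of TNFα-treated and untreated DKD cells, against 256 and 205 CPM in those of CTL cells. In DKD cells this was 17.2% of the CTL level with TNFα and 15.8% without, while numbers 2 and 3 were at 23.7% and 21.1% with TNFα and 22.2% and 20% without. MACROH2A1 was lower in number 1 libraries of DKD cells (-0.59, SE 0.08) and not called in CTL cells (-0.19, SE 0.08). MACROH2A2 was at 9.86% of the CTL level with TNFα and 10.3% without in number 1 libraries, and at 6.43% to 9.68% in the others. It stood at 4.64 and 6.01 CPM in number 1 libraries of DKD cells, against 3.28 to 4.76 CPM in the others, so the 2 targets went opposite ways (MACROH2A2 shift in DKD cells 0.36, SE 0.12). The labels thus hold in every number. Among the other variants, H2AZ2, a form of H2A.Z, was lower in both lines (-0.67, SE 0.06 in DKD and -0.6, SE 0.06 in CTL cells), and H2AX, the variant of DNA damage signalling, was called lower in DKD cells (-0.88, SE 0.17) and not called in CTL cells (-0.25, SE 0.17).

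The shift in DKD minus that in CTL cells was called for 426 genes with a higher (2.64%) and 647 with a lower value in DKD cells (4.01%), which is 6.66% of the genes tested. Among lists, 26 of 44 replication genes, 14 of 50 mitotic genes, 11 of 33 growth genes and 9 of 25 heat-shock genes were called with a lower value in DKD cells, and none of these lists had one called higher. Of 35 acute-phase genes 8 were called with a higher value and 2 with a lower one. These counts depended on single libraries: 12 genes were called without the number 1 library of TNFα-treated CTL cells, 50 without that of untreated DKD cells, 59 without that of untreated CTL cells and 2621 without that of TNFα-treated DKD cells, and 162 to 548 without number 2 or 3 of untreated DKD cells or any other library of CTL cells. With number 2 alone as the other side edgeR called no gene (3106 had an unadjusted p under 0.05), and with number 3 alone it called 1.

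Whether the shift depends on TNFα is a different contrast from the one chosen, though on the same libraries, and was tested with 1 shift for each group. The shift was called higher with TNFα than without for 106 genes (0.658%) and lower for 39 (0.242%), together 0.9% of the genes tested. Of the 106, 99 were also called lower in number 1 libraries over all groups and 0 higher. Of the 39, 6 were called lower over all groups and 17 higher. Over all genes tested these shares were 22.7% lower and 21.5% higher. Most of the 106 are thus genes that were lower in number 1 libraries, and no separate set. Of the 39, 38 had a higher value with TNFα than without in numbers 2 and 3 (median log2 response 0.49), and 16 did in number 1 (median -0.16). Of the 106, 20 had a higher value with TNFα in numbers 2 and 3 (median -0.16) and 104 in number 1 (median 0.47). The contrast equals the TNFα response in number 1 minus that in numbers 2 and 3. The order of these medians therefore follows from the calls and is no further result. These counts rest on single libraries: without number 2 or 3 of either untreated group no gene was called by edgeR, with 2036 to 2421 genes at an unadjusted p under 0.05, and without number 2 of TNFα-treated CTL cells or number 2 or 3 of TNFα-treated DKD cells 25 to 36 were called. DESeq2 called 311 over all libraries.

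IGFBP1, a secreted IGF-binding protein, showed the most negative of the named differences. It stood at 2.22 CPM with and 5.63 CPM without TNFα in the number 1 libraries of DKD cells, against 13.9 and 13.8 CPM with and 3.35 and 3.03 CPM without in the others. In CTL cells it stood at 2.98 CPM with and 1.12 CPM without TNFα in number 1, against 13.4 and 8.98 CPM with and 2.44 and 1.39 CPM without in the others. The shift with TNFα minus that without was -2.31 on the log2 scale (SE 0.35, edgeR adjusted p = 0.0307), with number 1 lower than the others under TNFα in both lines. FSTL3, a secreted inhibitor of activin, stood at 7.62 CPM with and 5.19 CPM without TNFα in the number 1 libraries of DKD cells and at 15 and 8.17 CPM in those of CTL cells. In the others it stood at 71.3 to 80.2 CPM with and 17.1 to 20.8 CPM without TNFα, so all 4 number 1 libraries lay below all 8 others and the difference was -1.32 (SE 0.11, edgeR adjusted p = 0.0179).

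PTAFR, the receptor of platelet-activating factor, stood at 2.1 and 5.61 CPM in the TNFα-treated number 1 libraries of DKD and CTL cells, against 9.08 to 13.6 CPM in the others, while all untreated libraries lay between 1.02 and 1.38 CPM (difference -1.63, SE 0.21, edgeR adjusted p = 0.0251). NEB, the sarcomere protein nebulin, stood at 18.8 and 20.7 CPM with and without TNFα in the number 1 libraries of DKD cells and at 8.83 and 7.08 CPM in those of CTL cells. In the others it stood at 6.32 to 9.44 CPM with and 2.43 to 3.22 CPM without, so treated and untreated libraries lay apart in the others and close together in number 1 (difference -1.29, SE 0.15, edgeR adjusted p = 0.0179). YPEL2 had a difference of -0.75 (SE 0.12, edgeR adjusted p = 0.036).

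In the other direction, NPTXR, a neuronal pentraxin receptor, stood at 88.5 and 15.1 CPM with and without TNFα in the number 1 libraries of DKD cells and at 128 and 48.8 CPM in those of CTL cells. The others had 139 to 197 CPM with and 86.9 to 117 CPM without, so number 1 was the lowest of every group and lay further below the others without TNFα (difference 1.28, SE 0.15, edgeR adjusted p = 0.0179). CDCA7, a target of MYC and E2F, had a difference of 1.21 (SE 0.14), the growth factor receptor FGFR1 of 1.15 (SE 0.12) and the complement-regulating CSMD1 of 1.06 (SE 0.12), each with an edgeR adjusted p of 0.0179. UBD, a ubiquitin-like protein that TNFα induces strongly, stood at 239 and 183 CPM in the TNFα-treated number 1 libraries of DKD and CTL cells against 243 to 348 CPM in the others, and at 4.95 and 1.65 CPM in the untreated ones against 4.1 to 14.6 CPM. Its difference was 0.93 (SE 0.16, edgeR adjusted p = 0.0492). NFKBIA, also induced by TNFα, showed none that was called (-0.15, SE 0.1, adjusted p = 0.543), nor did CXCL8 (-0.54, SE 1.89, adjusted p = 0.941), whose interval is wide at these counts.

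**Figure D5:**
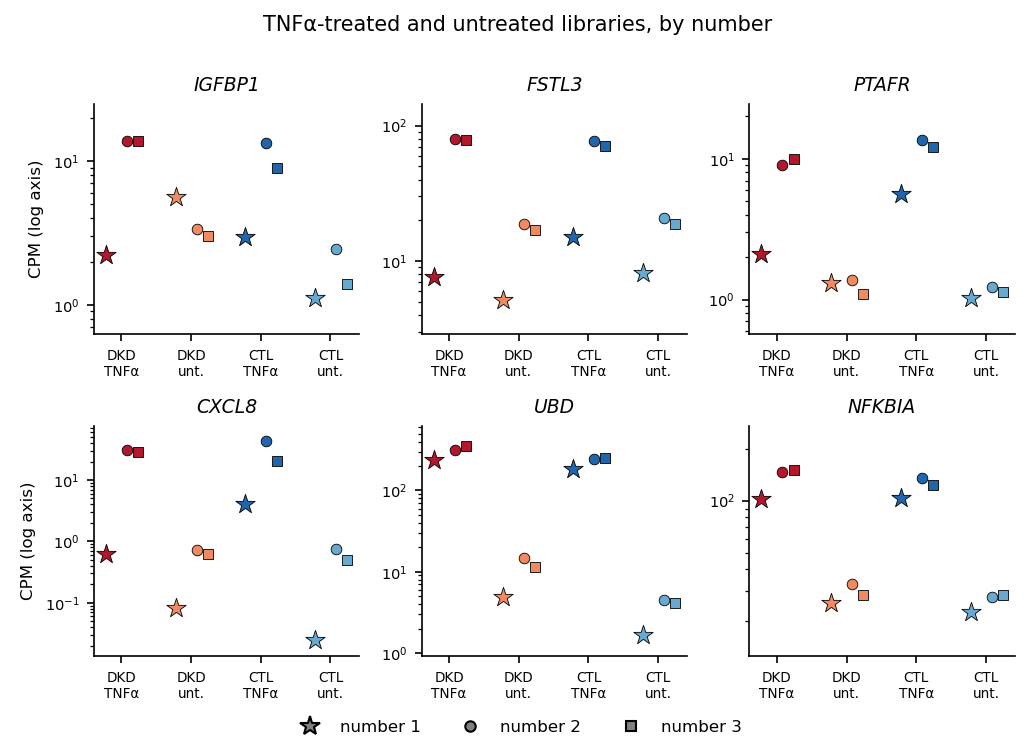
CPM of 6 genes in each library on log axes, with stars for number 1, circles for number 2 and squares for number 3. With TNFα the stars lie below the other symbols for IGFBP1, FSTL3 and PTAFR in both lines, while without it the IGFBP1 star of DKD cells lies above and the PTAFR star of DKD cells between them. For UBD the stars lie further below the others without TNFα.

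Between the libraries numbered 3 and 2, which the choice of the split had seen to lie together, 15 genes were called higher in number 3 (0.0931%) and 24 lower (0.149%), and the median size of the difference was 0.10 on the log2 scale. TCIM, a regulator of Wnt signalling, stood at 16.7, 9.85, 9.38 and 5.78 CPM in number 3 libraries against 28.9, 21.8, 19.7 and 12.2 CPM in number 2 (DKD with TNFα, DKD untreated, CTL with TNFα, CTL untreated). It was lower in 4 of 4 groups, by 1.01 (SE 0.13, edgeR adjusted p = 0.0302). IGF2, the fetal growth factor, stood at 293, 517, 755 and 983 CPM in number 3 against 545, 951, 1047 and 1843 CPM in number 2 libraries, again lower in 4 of 4. The stress factor ATF3 (-0.75, SE 0.1, adjusted p = 0.0315), the autophagy protein VMP1 (-0.73, SE 0.07, adjusted p = 0.028) and the cystine carrier SLC7A11 (-0.71, SE 0.11, adjusted p = 0.045) were lower by the same edgeR test. The genes higher in number 3 included pseudogenes whose reads may belong to their parent genes, RPL23AP42 (1.45, SE 0.17, adjusted p = 0.0302) and HSPE1P4 (0.94, SE 0.13, adjusted p = 0.0333), and the transcription co-activator CITED4 (0.62, SE 0.1, adjusted p = 0.0461). No gene was called without number 2 or 3 of TNFα-treated CTL cells, without number 2 of untreated CTL cells, without number 3 of TNFα-treated DKD cells, or without number 2 or 3 of untreated DKD cells, where 1314 to 1925 genes had an unadjusted p under 0.05. Without number 2 of TNFα-treated DKD cells 1 was called, without number 1 of untreated CTL cells 4, and without number 3 of untreated CTL cells 17. Without number 1 of TNFα-treated DKD cells 21 were called, and without that of untreated DKD cells 283.

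The shift also moved with sequence features of the transcripts. The genes were put in 5 bins of nearly equal size by the GC content of their longest GENCODE transcript. The median shift over all groups was 0.09 in the bin with the least GC (median 38.6%) and -0.09 in the bin with the most (61.3%). In the lowest bin 28.8% of genes were called higher and 12.6% lower, and in the highest 14.9% and 33.8%. The medians were close in the lines, at 0.10 and -0.10 in DKD cells and 0.09 and -0.10 in CTL cells. Number 3 minus number 2, whose sign follows only from the order taken, stood at -0.10 in the lowest and 0.10 in the highest bin. By transcript length the median shift was -0.06 in the bin of the shortest transcripts (median 1099 bases) and 0.10 in that of the longest (7336 bases). Number 3 minus number 2 stood at 0.07 and -0.05 in these bins. Over genes, GC content correlated with rho = -0.168 with the shift and 0.4 with number 3 minus number 2. For length rho was 0.13 and -0.26, so neither trend was particular to number 1. The part of GC content and length in the named shifts, most of which are larger than the bin medians, was not tested.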

How the data were processed

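RNA-seq of 12 HepG2 libraries was analysed, 3 in each of 4 groups. The deposited values used were estimated counts by gene symbol, already whole, for 35984 genes (10456 without a count). A deposited normalised signal equals these counts over 1 size factor for each library, and was left aside. The submitters' processing notes name CASAVA 1.7, Salmon 0.14.0, DESeq2 and GRCh38/hg38, and which annotation or strand setting was used is not given in the sources used here. Salmon shares reads among similar transcripts, so near-identical genes are uncertain.

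From the counts, TMM factors, CPM, filterByExpr (minimum count 10, minimum total 15) and quasi-likelihood tests were computed with edgeR 4.0.16 in R 4.3.3 on all 12 libraries. The models held the group and 1 term for number 1, 1 term per line, 1 term per group (TNFα), or the number as a factor. SE is the log2 fold change over the root of F. Adjusted p-values are Benjamini-Hochberg values over 16118 genes, called at 0.05. The models were tested on simulated data.

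The split, the lists and the named genes were chosen with earlier results of these data known, and no comparison of number 1 with the others is given as a test. Named were the macroH2A genes, up to 8 called genes each way with the largest shift over all groups, in CTL or in DKD cells (number 1 beyond both others in every group covered), up to 5 each way for the other contrasts, all at an average log2 CPM of at least 2, and up to 4 called genes per list by smallest p. One gene that this rule names is not reported here. Names, coordinates and promoters are RefSeq's (14992 genes matched, 93%, GRCh38.p14), and GC content and length GENCODE's (15973 matched).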

Additional observations from a re-analysis of the deposited data

Results flagged for a closer look

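Each value here is a difference between groups in the shift of number 1 libraries, called by edgeR in the fit that holds both groups. A difference between the lines was called for 426 genes with a higher and 647 with a lower shift in DKD than in CTL cells. The number 1 libraries of DKD cells were among those that led to the split, so these values are a description.

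Among liver genes, the log2 shift in DKD minus that in CTL cells was 0.68 for SULT2A1, 0.54 for UGT2B10, 0.76 for SLCO2B1, 0.52 for FMO5 and 0.43 for CPB2. It was 0.63 for SERPIND1, 0.74 for SERPINF2, 0.45 for C4BPA and 0.61 for APOB. It was 0.74 for PPARA, 0.73 for NR1D2, 0.75 for CREB3L3, 0.60 for ABCA1 and 1.40 for PLIN4. SLC39A14 had 0.43, GLUL 0.37 and MT-CYB 0.59.

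Among membrane, cytoskeletal and matrix genes the same difference was -2.35 for CLDN6, -2.53 for EMP3, -2.0 for L1CAM, -1.70 for S100A11, -1.76 for SLC4A11 and -1.43 for TUBA1A. It was -2.58 for GPRC5B, -2.12 for NES, -2.12 for ANKRD1, -1.24 for TIMP1, -1.40 for TIMP2 and -2.05 for LOXL4. KRT8 had -0.46 and KRT18 -0.55. The heat-shock genes SERPINH1, HSPB8, HSPH1 and HSP90AA1 had -0.54, -1.95, -0.59 and -0.38.

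Among genes of the cell cycle and growth it was -0.66 for CCNE1, -1.01 for CDC6, -0.92 for MCM10, -0.86 for MCM6, -0.90 for GINS2 and -1.57 for CDCA7. It was -0.75 for AURKB, -0.56 for CDCA3, -0.49 for HMMR and -0.48 for CDKN3. SRM had -0.70, NME1 -0.73, ODC1 -0.63, NDUFV2 -0.41, PFKFB3 -1.35 and ENO1 -0.33. IKBKE had -1.18 and IFITM2 -0.65. Of the remaining genes, CSTF2T had 1.11, KCND1 2.20, TNFSF14 2.60, NEB 1.71, AOC2 1.52 and QRICH2 1.52.

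A difference by treatment was called for 106 genes with a higher and 39 with a lower shift with TNFα than without. The log2 shift with TNFα minus that without was -2.31 for IGFBP1, -1.63 for PTAFR, -1.32 for FSTL3, -1.29 for NEB and -0.75 for YPEL2. It was 1.28 for NPTXR, 1.21 for CDCA7, 1.15 for FGFR1, 1.06 for CSMD1 and 0.93 for UBD. NEB and CDCA7 were called for both kinds of difference.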

How the results depend on the processing

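No paired analysis was possible because the replicate number is itself the contrast, and the group served as the block. Counts of called genes, higher and lower together, were recomputed under the alternatives. With number 2 alone as the other side 3884 genes were called over all groups and 630 in CTL cells, and with number 3 alone 301 in CTL cells. The difference between the lines was called for 2051 genes with 1 shift per group, 2130 with DESeq2, 0 with number 2 alone and 1 with number 3 alone. The TNFα dependence was called for 311 genes with DESeq2. Number 3 minus 2 was called for 515 genes with DESeq2 and 69 without a filter on low counts. Leaving out 1 library at a time gave 5178 to 7320 genes over all groups, 230 to 3061 in CTL cells and 4421 to 7824 in DKD cells. It gave 12 to 2621 for the difference between the lines, 0 to 135 for the TNFα dependence and 0 to 283 for number 3 minus 2. The TNFα dependence could not be fitted without a number 1 library.

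With the DESeq2 size factors the median of all genes moved by -0.011 on the log2 scale over all groups. Of 129 named genes called over all groups, 128 stayed called with those factors, 116 with number 2 alone and 123 with number 3 alone, and none changed direction under these alternatives. Leaving out 1 library turned the sign of the median in DKD cells for immediate early genes (0.13 to -0.13) and for replication-dependent histones (0.13 to -0.14), both without number 1 of untreated DKD cells (the histones also without number 2, at -0.02). It also did so for endothelial and stromal markers in DKD cells (0.21 to -0.13, without number 1 of TNFα-treated DKD cells) and for markers of other epithelia over all groups (0.13 to -0.04, without number 1 of untreated DKD cells). A further 22 of 108 list medians, each smaller in size than 0.1 in the full data, turned sign when 1 library was left out, such as NF-kB feedback genes in DKD cells (-0.04 to 0.22 without number 1 of TNFα-treated DKD cells). The cause of these changes was not tested. Genes with few counts, such as MT1X, CXCL8 and IL18 in number 1 libraries, are limited by depth.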
